A study of Mus musculus with 10 samples.

Results

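The haematopoietic cytokine and growth factor receptors examined here are 9 genes: Epor, Csf2ra, Csf2rb, Csf2rb2, Il3ra, Csf3r, Csf1r, Kit and Flt3. They were chosen by name. Their probes are those non-control spots of the array whose RefSeq identifier a RefSeq gene table pairs with the symbol, which gave 14 receptor probes among 27235 probes with a symbol and 9 receptor genes among 20660 symbols. Csf2rb, Csf2rb2 and Flt3 had 2 probes each and Csf1r had 3. The brightest probe of each gene was used, and the others are described after the main results. All 9 receptors were among the 14200 genes that passed the filter on dim probes, and the probe used was well above background on all 10 arrays for each of them.

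Receptors of this kind let a blood progenitor read the growth factors around it. Epor, Csf2ra, Csf2rb, Csf2rb2, Il3ra and Csf3r belong to the class I cytokine receptors, which have no kinase of their own and signal through bound Janus kinases, mainly JAK2, and STAT5 or STAT3. The receptors for IL-3 and GM-CSF each join a ligand-binding alpha chain, encoded by Il3ra or Csf2ra, to the common beta chain encoded by Csf2rb. Mice carry a further beta chain, encoded by Csf2rb2, that serves IL-3 only. Csf1r, Kit and Flt3 are receptor tyrosine kinases, for M-CSF, stem cell factor and FLT3 ligand. Epor is known for the survival and expansion of red cell precursors, Csf3r for neutrophil production, and Kit and Flt3 for early progenitors.

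The cells were EML-C1, a mouse progenitor line that grows on stem cell factor from BHK/MKL conditioned medium. As background, the line was made with a dominant-negative retinoic acid receptor and is a single clone. Every condition had 1 array, so there was no replicate of any of the 10 conditions. The second experiment that the series' design text speaks of was not analysed here. ATRA, or all-trans retinoic acid, was given with IL-3. Combined cultures had EPO (10 ng/ml) together with IL-3 (10 ng/ml) and ATRA (10 µM), EPO cultures had EPO alone (10 ng/ml), and IL-3/GM-CSF cultures had IL-3 (10 ng/ml) with ATRA (10 µM). GM-CSF, at 10 ng/ml, entered the combined and IL-3/GM-CSF cultures only after day 3, so the day 3 arrays of these treatments show cells that had received IL-3 and ATRA but no GM-CSF. Each treatment was sampled at day 3 in cells sorted as Sca1-low and Sca1-high and at day 6, where the labels name no Sca1 fraction. Untreated cells were sampled at day 0. Horse serum stood at 20% both after day 3 and in maintenance, while conditioned medium was at 2% after day 3 and 15% in maintenance, so that day 6 cells also had less of it than untreated cells.

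Levels are given as log2 of the processed spot intensity relative to the 75th percentile of the same array, so that a level of 0 equals that percentile. Since probes differ in brightness, the level of a gene is compared only with its own level on other arrays. The 75th percentile itself lay between 309 and 736 intensity units, and 78.5% to 95.0% of the 14200 genes were well above background. Ly6a, which encodes Sca1, had levels of -2.80, -4.25 and -3.43 in Sca1-low cells of the combined, EPO and IL-3/GM-CSF cultures, against 1.89, 4.76 and 2.64 in Sca1-high cells and 3.02 in untreated cells. On the EPO Sca1-low array the Ly6a probe was not well above background. The extraction software asked for a closer evaluation of 5 arrays, all from day 3, among them all 3 of the Sca1-low cells. The 10 arrays came from 3 slides, and the Sca1-low and Sca1-high arrays of a treatment always shared 1.

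The upstream sequence of 3 receptors is shown because these genes had the widest ranges over the 10 arrays, and because the windows differ in the short motifs they hold. Windows of RefSeq's GRCm38.p6 promoter table were used for 7 of the 9 receptors. No window was used for Csf2rb and Csf1r, so the motif counts out of 7 leave these genes out. Each line gives the 250 bases before the annotated gene start, 5′ to 3′ on the strand of the gene, which is the minus strand for all 3: Epor at chr9:21963577-21963826, Csf2rb2 at chr15:78305722-78305971 and Csf2ra at chr19:61228419-61228668. Capitals mark matches, on either strand, to the motifs spelled out after the sequences.
Epor: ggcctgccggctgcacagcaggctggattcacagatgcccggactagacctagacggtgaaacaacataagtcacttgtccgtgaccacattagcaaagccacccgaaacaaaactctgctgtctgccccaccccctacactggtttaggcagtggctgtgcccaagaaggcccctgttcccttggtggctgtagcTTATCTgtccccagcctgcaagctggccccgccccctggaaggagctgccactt
Csf2rb2: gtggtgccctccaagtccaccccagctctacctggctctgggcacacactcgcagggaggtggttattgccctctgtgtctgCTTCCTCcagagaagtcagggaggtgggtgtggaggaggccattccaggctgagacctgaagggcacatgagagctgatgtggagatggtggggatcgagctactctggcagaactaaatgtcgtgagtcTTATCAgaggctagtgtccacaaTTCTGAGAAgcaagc
Csf2ra: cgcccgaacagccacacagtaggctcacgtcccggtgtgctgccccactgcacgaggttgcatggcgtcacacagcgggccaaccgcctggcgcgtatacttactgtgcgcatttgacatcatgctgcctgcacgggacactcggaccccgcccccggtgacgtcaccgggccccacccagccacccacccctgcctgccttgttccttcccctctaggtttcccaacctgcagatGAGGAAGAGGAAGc
The GATA motif was searched as AGATAA and TGATAA, the ETS motif of the PU.1 type as AGGAAGT and GAGGAAG, the C/EBP motif as TTGCNNAA and the STAT motif as TTCNNNGAA, each on both strands. Epor held 1 GATA match, at bases -54 to -49 from the start. Csf2rb2 held a GATA match at -38 to -33, an ETS match at -168 to -162 and a STAT match at -15 to -7. Csf2ra held 2 ETS matches that overlap, at -14 to -8 and at -8 to -2. The GATA motif was found in 2 of the 7 receptors with a window and in 16.6% of the 32851 windows of the table. The ETS motif was in 5 of 7 and 15.4%, the C/EBP motif in 1 of 7, Il3ra, and 9.56%, and the STAT motif in 1 of 7 and 7.02%. Receptors are counted by gene, with a match in any window of the gene, and Kit had overlapping windows. The shares are per window. These matches are descriptions of the letters in a window and say nothing about binding.

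Day 3 cells were first compared by fraction, which asks how the receptors differ between cells sorted as low and as high for the Sca1 progenitor marker. Epor rose in Sca1-low cells, Csf2rb and Csf2rb2 fell, and the other 6 receptors did not pass the test. Each treatment served as a pair, and limma, with treatment as a block, measured the mean difference against how unevenly it came out over the 3 pairs. Adjusted p-values are Benjamini-Hochberg values computed across the 14200 genes, with a threshold of 0.05. By this test 3 of 9 receptors were called, against 11.1% of all genes tested. In the higher direction it was 1 receptor, against 4.09% of genes, and in the lower direction 2, against 6.99%. The spread here is between treatments, so it holds no culture-to-culture replicate error.

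Epor, the receptor for erythropoietin, had levels of 4.73, 5.38 and 5.01 in Sca1-low cells of the combined, EPO and IL-3/GM-CSF cultures, against 1.67, 3.23 and 1.13 in Sca1-high cells. All 3 Sca1-low arrays lay above all 3 Sca1-high arrays, and the Sca1-high array of EPO cultures was the highest of its fraction. The mean difference was 3.03 (SE 0.38, 3 pairs), which is 8.18-fold, with an adjusted p of 0.0157 in limma. Cultures that never received EPO showed the widest gap: in IL-3/GM-CSF cells Epor was 14.7-fold higher in the Sca1-low than in the Sca1-high fraction, against 8.37-fold in combined and 4.44-fold in EPO cultures. Whether these gaps differ could not be tested with 1 array a condition. Within single pairs, differences of at least 2-fold were found in 4 of 9 receptors in combined cells (23.8% of genes), 4 of 9 in EPO cells (27.0%) and 5 of 9 in IL-3/GM-CSF cells (23.2%), with Epor the 1 higher receptor in each, where 11.8%, 12.3% and 9.27% of genes were higher.

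Csf2rb, the common beta chain of the IL-3, IL-5 and GM-CSF receptors, had levels of 3.83, 5.09 and 4.58 in Sca1-low cells, against 5.58, 6.92 and 5.66 in Sca1-high cells, in the order combined, EPO and IL-3/GM-CSF. The fractions did not overlap, and EPO cells were highest within each fraction. The mean difference was -1.55 (SE 0.25, 3 pairs; adjusted p = 0.0282), so that Sca1-low cells were 2.93-fold lower. Csf2rb2, the IL-3-specific beta chain, had levels of 3.12, 4.74 and 3.95 in Sca1-low cells, against 5.39, 7.30 and 5.25 in Sca1-high cells. Again the fractions did not overlap. Its mean difference was -2.04 (SE 0.32, 3 pairs; adjusted p = 0.0255), or 4.12-fold lower in Sca1-low cells.

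Il3ra, the IL-3-binding alpha chain, had levels of 2.15, 2.02 and 2.41 in Sca1-low cells, against 3.03, 2.71 and 3.51 in Sca1-high cells. It was lower in the Sca1-low fraction of all 3 treatments, with no overlap, but the difference of -0.89 (SE 0.21) had an adjusted p of 0.0658. Together with Epor, Csf2rb and Csf2rb2 this makes 4 of 9 receptors whose fractions did not overlap, against 35.9% of all genes. Csf2ra, the GM-CSF-binding alpha chain, had levels of 3.05, 2.94 and 3.36 in Sca1-low cells and 3.50, 2.92 and 4.18 in Sca1-high cells. These overlapped, and the difference of -0.42 (SE 0.25) had an adjusted p of 0.316.

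Csf3r, the G-CSF receptor, had levels of 8.01, 6.48 and 7.15 in Sca1-low cells and 7.45, 6.40 and 6.40 in Sca1-high cells. It was higher in the Sca1-low fraction of all 3 pairs, by 0.07 in EPO and up to 0.75 in IL-3/GM-CSF cells, and the fractions overlapped; the mean of 0.46 (SE 0.23) had an adjusted p of 0.25. Kit, the stem cell factor receptor, had levels of 3.09, 3.04 and 3.19 in Sca1-low cells and 4.06, 5.50 and 3.17 in Sca1-high cells. The Sca1-low arrays lay close together (SD 0.07, n = 3), while the Sca1-high arrays were spread (SD 1.17, n = 3). Kit was therefore 5.47-fold lower in Sca1-low than in Sca1-high cells of EPO cultures and level between the fractions of IL-3/GM-CSF cultures, and its mean difference of -1.14 (SE 0.51) had an adjusted p of 0.208. Csf1r, the M-CSF receptor of monocytes, went opposite ways in the pairs, at -1.15 in combined, 0.57 in EPO and -1.76 in IL-3/GM-CSF cells, with an adjusted p of 0.334 for the mean of -0.78 (SE 0.49). Flt3 differed by 0.46, 0.78 and -0.23, with an adjusted p of 0.437 for the mean of 0.34 (SE 0.27).

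**Figure D1:**
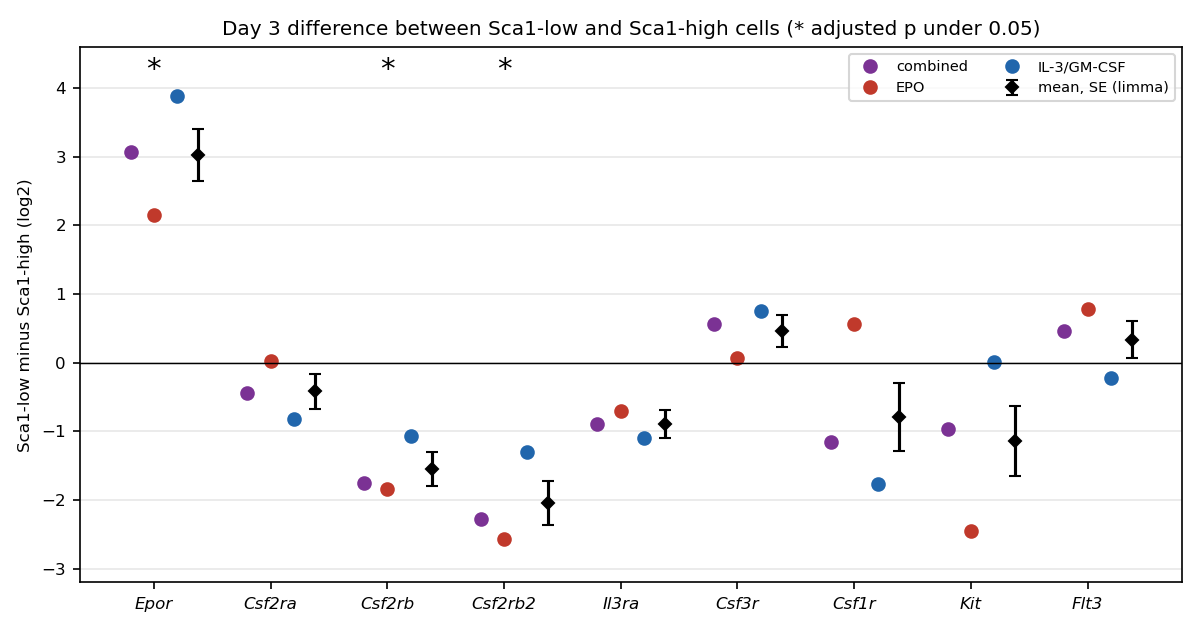
Difference in log2 level between Sca1-low and Sca1-high cells at day 3 for each receptor. Coloured points are the 3 treatments, black diamonds the limma mean with its SE (3 pairs), and asterisks mark an adjusted p under 0.05; Epor lies above 0 in all 3 treatments, Csf2rb, Csf2rb2 and Il3ra lie below 0 in all 3, and Csf1r and Flt3 have points on both sides.

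An exact sign-flip test over the 3 pairs cannot go below a two-sided p of 0.25, the value it gave for Epor, Csf2rb, Csf2rb2, Il3ra and Csf3r. The calls depend on the fit: an additive fit of all 10 arrays gave adjusted p-values of 0.145 for Epor, 0.18 for Csf2rb and 0.134 for Csf2rb2. Without the IL-3/GM-CSF pair none of the 9 receptors and 0 of the 14200 genes were called, and without the combined pair none of the receptors and 471 genes. Without the EPO pair 4 receptors and 2305 genes were called, the added receptor being Csf1r at -1.46 (adjusted p = 0.03). The difference for Epor stayed between 2.61 and 3.47 whichever pair was left out.

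Cell type markers also differed between the fractions, and their part in the receptor differences was not tested. Of all genes tested, 4.09% were called higher and 6.99% lower in Sca1-low cells. Of 15 erythroid markers tested, 12 rose in Sca1-low cells and none fell, and all 15 were well above background on every Sca1-low array; the summed level of the list, as a multiple of the 75th percentile, was 923 to 2253 in Sca1-low and 356 to 478 in Sca1-high cells. Hba-x, the embryonic alpha-like globin, was not well above background on any Sca1-high array. Of 17 neutrophil markers, 4 fell, with summed levels of 30.9 to 137 in Sca1-low and 458 to 867 in Sca1-high cells. In EPO cells, however, their median difference was 0.10, with 3 at least 2-fold higher and 5 lower in the Sca1-low fraction. The medians were -4.66 in combined and -5.01 in IL-3/GM-CSF cells. Mmp8, a neutrophil collagenase, was not well above background on any of the 6 arrays. Gfi1, a repressor needed for neutrophil formation, was not well above background on any Sca1-low array. Of 12 monocyte markers, 4 fell, with summed levels (Csf1r left out) of 0.514 to 2.01 in Sca1-low and 6.79 to 43.0 in Sca1-high cells. Of 12 mast cell markers, 4 fell, with summed levels (Kit left out) of 13.9 to 46.4 in Sca1-low and 162.5 to 682 in Sca1-high cells. Of 10 stem and progenitor markers, which include the sorted Ly6a, Kit and Flt3, 1 rose and 5 fell, with summed levels (Kit and Flt3 left out) of 33.8 to 50.6 in Sca1-low and 120.4 to 227 in Sca1-high cells. In these sorted bulk samples, fewer cells of a type and less RNA per cell cannot be told apart.

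Over all 10 arrays the receptors varied more widely than a typical gene. The gap between the highest and the lowest array had a median of 3.09 over the 9 receptors, against 1.56 over the 14200 genes. Neighbouring arrays in the order of a gene's levels are called apart below where their gap is beyond the 95% range of the combined error that the extraction software gives for the spots, about 0.40 log2 units for 8 receptors and up to 0.48 for Flt3; this covers the spot reading alone.

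Epor ran from 5.38 in EPO Sca1-low cells through 5.28 at EPO day 6, 5.01 in IL-3/GM-CSF Sca1-low and 4.73 in combined Sca1-low cells, none of which is apart from its neighbour. After a gap came EPO Sca1-high cells at 3.23 and untreated cells at 3.02, which are not apart, then combined Sca1-high at 1.67, IL-3/GM-CSF Sca1-high at 1.13, combined day 6 at 0.71 and IL-3/GM-CSF day 6 at -0.54, each apart from the next. The whole range was 5.92 log2 units or 60.4-fold, and 3.96% of genes had a wider one. The 4 highest arrays are thus the 3 Sca1-low fractions and EPO day 6, and the 2 lowest are the day 6 arrays of the cultures that received GM-CSF.

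Csf2ra was highest at IL-3/GM-CSF day 6 (6.57), followed by combined day 6 (5.56), IL-3/GM-CSF Sca1-high (4.18) and combined Sca1-high cells (3.50), each apart from the one before. From combined Sca1-high down to untreated cells (2.79) no neighbours were apart. The 3 EPO arrays, at 2.97 at day 6, 2.94 in Sca1-low and 2.92 in Sca1-high cells, spanned less than the spot error. Its whole range was 13.8-fold, and both of its highest arrays were from cultures that had received GM-CSF.

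Csf2rb was highest in EPO Sca1-high cells (6.92), then in untreated cells (6.51), at IL-3/GM-CSF day 6 (6.37) and combined day 6 (6.12), and lowest in combined Sca1-low cells (3.83). Csf2rb2 had the same highest array, at 7.30, the same next one, untreated at 6.56, and the same lowest one, at 3.12. Both genes lie on chromosome 15 with 1 annotated gene, Mir7676-1, between them, and they encode closely similar chains, so that cross-hybridisation between their probes cannot be told apart from shared change.

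Il3ra had the narrowest range of the 9 receptors, 1.84, which 39.9% of all genes exceeded, from 3.51 in IL-3/GM-CSF Sca1-high cells to 1.68 at EPO day 6, and only the top array was apart from its neighbour. Csf3r ran from 8.01 in combined Sca1-low cells, which were apart from the next array, to 6.01 at combined day 6, with no other neighbours apart. The 3 EPO arrays held Csf3r between 6.40 and 6.51. Csf1r ran from 3.64 at IL-3/GM-CSF day 6 to 1.68 in combined Sca1-low cells. It lay at or above 2.82 on 6 arrays and at or below 1.97 on 4, which were EPO day 6, untreated, IL-3/GM-CSF Sca1-low and combined Sca1-low cells.

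Kit was highest in untreated cells, at 5.85, and next in EPO Sca1-high cells, at 5.50, which are not apart. Combined Sca1-high cells at 4.06 and combined day 6 cells at 3.85 followed, then 5 arrays between 3.02 and 3.19 that are not apart, and IL-3/GM-CSF day 6 at 2.53. Flt3, a receptor of lymphoid and myeloid progenitors, was dim, with processed intensities of 82.3 to 282. It was highest at EPO day 6 (-0.76) and in EPO Sca1-low cells (-1.12), with a gap beyond the spot error below them, and lowest at IL-3/GM-CSF day 6 (-2.94). By the dimmer Flt3 probe these EPO arrays were at -3.02 and -2.74, with EPO Sca1-high cells close below at -3.19. The processed intensity of the main probe was 142 in EPO Sca1-low and 137 in untreated cells. Their difference in level thus comes from the array percentiles, 309 and 736.

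**Figure D2:**
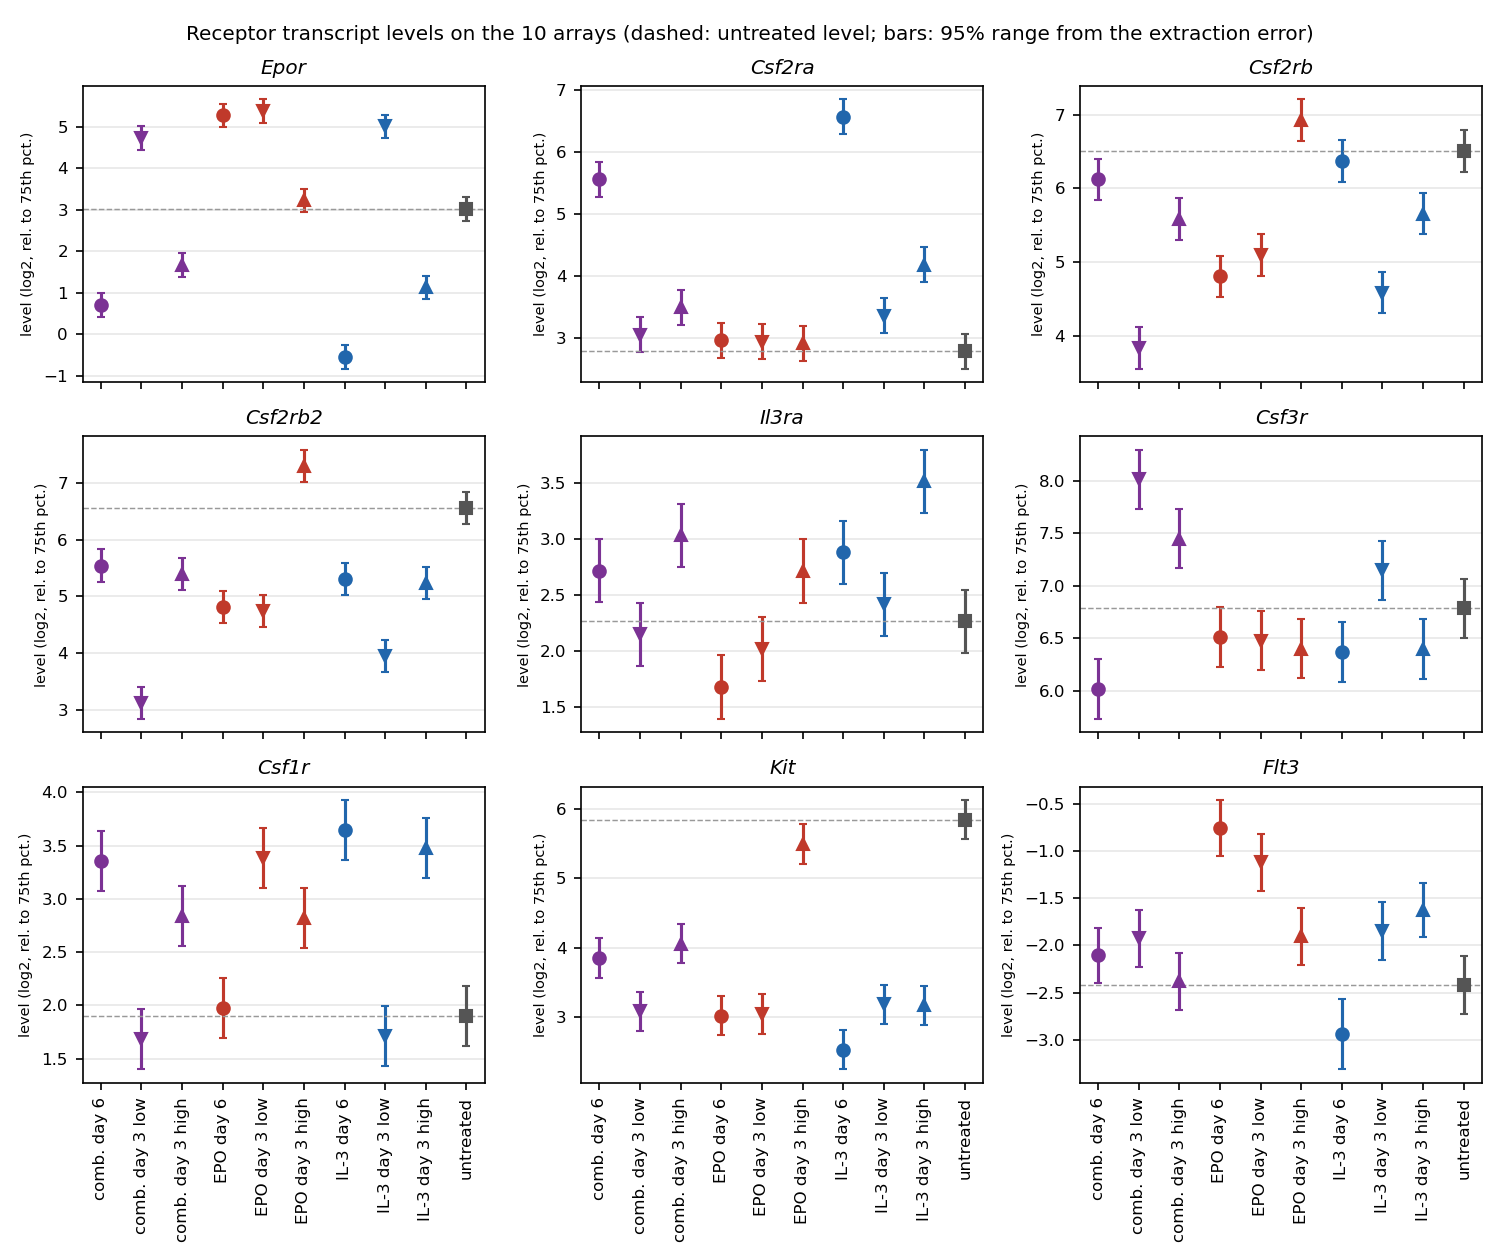
Log2 level of each receptor, relative to the array's 75th percentile, on the 10 arrays; colours are treatments, circles day 6, downward triangles Sca1-low, upward triangles Sca1-high and the grey square untreated cells. Bars are the 95% range of the error given by the extraction software and the dashed line is the untreated level; Kit lies below that line on all 9 treated arrays and Csf2ra above it.

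Treatments were then compared with each other, which asks whether a receptor follows the cytokine supplied. EPO minus IL-3/GM-CSF, combined minus EPO and combined minus IL-3/GM-CSF were tested in an additive limma fit of all 10 arrays, in which the difference between treatments is averaged over Sca1-low, Sca1-high and day 6 cells and its unevenness over these populations counts as error. In EPO minus IL-3/GM-CSF none of the 9 receptors was called, against 0.00704% of genes. In combined minus EPO none was called, against 0.00704%, and in combined minus IL-3/GM-CSF none, against 0%. At an unadjusted p under 0.05 these fits held 2682, 3353 and 259 genes, of which 3, 0 and 0 were receptors.

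The 3 receptors past the unadjusted threshold in EPO minus IL-3/GM-CSF were Epor, Csf2ra and Il3ra. Epor averaged 4.63 ± 1.21 in EPO cells, against 1.87 ± 2.85 in IL-3/GM-CSF cells (SD, n = 3 populations), a difference of 2.76 (SE 0.96, adjusted p = 0.23). Csf2ra averaged 2.94 ± 0.02 in EPO cells, against 4.70 ± 1.67 in IL-3/GM-CSF cells, a difference of -1.76 (SE 0.60, adjusted p = 0.226). Il3ra averaged 2.14 ± 0.53 in EPO cells, against 2.94 ± 0.55 in IL-3/GM-CSF cells, a difference of -0.80 (SE 0.25, adjusted p = 0.215). None of these differences passed the adjusted test. With slide as a block the differences were 1.23 for Epor, -0.84 for Csf2ra and -0.60 for Il3ra, and none was called. In combined minus EPO the same block gave -4.57 for Epor, against -2.26 without it, and 2.60 for Csf2ra. These values equal the differences between the combined and EPO day 6 arrays alone, which share a slide. They rest on 1 array of each treatment and not on an average over populations. The calls that the block gave here are therefore not read as a treatment difference.

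The treatments were next compared array by array within each population. Differences between 2 single arrays are counted where they are at least 2-fold, with no test. In day 6 cells, EPO set against IL-3/GM-CSF differed by that much in 6 of 9 receptors (33.4% of all genes), with 2 higher (16.3% of genes) and 4 lower (17.2%). Epor was 56.4-fold higher and Flt3 4.53-fold higher in EPO cells, while Csf2ra was 12.2-fold, Csf1r 3.18-fold, Csf2rb 2.96-fold and Il3ra 2.30-fold lower. These arrays came from different slides.

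Combined day 6 cells, which received both sets of factors, were nearer to IL-3/GM-CSF than to EPO cells in most receptors. On slide 1, which held both arrays, combined differed from EPO day 6 cells in 6 of 9 receptors (29.9% of genes), with 4 higher (16.8%) and 2 lower (13.1%). Epor was 23.7-fold and Flt3 2.54-fold lower, and Csf2ra 6.05-fold, Csf1r 2.60-fold, Csf2rb 2.49-fold and Il3ra 2.06-fold higher in combined cells. From IL-3/GM-CSF day 6 cells, combined cells differed in 3 of 9 receptors (7.39% of genes), with 2 higher (4.51%) and 1 lower (2.89%). Epor was 2.38-fold and Kit 2.50-fold higher and Csf2ra 2.01-fold lower in combined cells. For Epor, the combined level of 0.71 lay between the EPO level of 5.28 and the IL-3/GM-CSF level of -0.54. Csf2ra, at 5.56 in combined cells, likewise lay between 2.97 in EPO and 6.57 in IL-3/GM-CSF cells.

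Within the Sca1-low fraction at day 3, EPO differed from IL-3/GM-CSF in 1 of 9 receptors, against 20.6% of genes, that receptor being Csf1r, 3.18-fold higher in EPO cells, where 9.65% of genes were higher. Combined differed from EPO cells in 4 of 9, against 22.0%, and from IL-3/GM-CSF cells in 0 of 9, against 6.51%. Within the Sca1-high fraction EPO differed from IL-3/GM-CSF cells in 5 of 9 receptors, against 13.5% of genes: Kit was 5.01-fold, Epor 4.27-fold, Csf2rb2 4.17-fold and Csf2rb 2.41-fold higher, and Csf2ra lower by 1.27 log2 units in EPO cells. Combined Sca1-high differed from EPO Sca1-high cells in 5 of 9, against 18.2%, and from IL-3/GM-CSF Sca1-high cells in 1 of 9, against 10.2%. The last of these was Csf3r, 2.07-fold higher in combined cells, and it was also 2.90-fold higher in combined than in EPO Sca1-low cells. The combined day 3 arrays were on another slide than the EPO and IL-3/GM-CSF day 3 arrays. In all these comparisons with combined cells, treatment and slide cannot be told apart.

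Each treatment was set against the untreated array, which all 3 comparisons share and which is assumed in the fit to vary like the rest. Kit was lower on all 9 treated arrays, by 0.35 in EPO Sca1-high cells and by at least 1.79 on the other 8. Its fitted difference from untreated cells was -2.18 (SE 0.75) for combined, -1.99 (SE 0.75) for EPO and -2.88 (SE 0.75) for IL-3/GM-CSF cells. None passed, with adjusted p-values of 1, 0.461 and 0.602. With slide as a block the differences were -2.58, -3.42 and -4.51, and again none passed. In size, -3.42 and -4.51 exceed Kit's whole range of 3.31 over the 10 arrays, so they are not read as effect sizes. On the slide that also held the untreated array, Kit was 3.98-fold lower at combined day 6 and 7.10-fold lower at EPO day 6. Less conditioned medium, and so less of the stem cell factor that binds Kit, went with these day 6 arrays, and the part of the medium cannot be told apart from that of the cytokines. Markers of mast cells and basophils, the first of which depend on Kit, had summed levels (Kit left out) of 11.9 to 224 at day 6 and 572 in untreated cells. Stem and progenitor markers (Kit and Flt3 left out) summed to 35.6 to 140.1 at day 6, 227 in EPO Sca1-high cells and 224 in untreated cells. The part of either list was not tested.

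In the fits against untreated cells no receptor was called in combined, EPO or IL-3/GM-CSF cells, against 0% of genes in each; 674, 1493 and 959 genes had an unadjusted p under 0.05. With slide as a block, EPO minus untreated was 6.97 for Epor, against 1.61 without it, and -4.28 for Csf2rb, against -0.90. That fit left 2 residual degrees of freedom and rests on the slides adding evenly. EPO day 6, on the slide of the untreated array, differed by 2.26 for Epor and -1.70 for Csf2rb. In size, both block values exceed the whole range over the 10 arrays, 5.92 for Epor and 3.09 for Csf2rb. They are not read as effect sizes. At the level of single arrays, combined day 6 differed from untreated cells by at least 2-fold in 5 of 9 receptors (14.7% of genes), EPO day 6 in 5 of 9 (26.5%) and IL-3/GM-CSF day 6 in 5 of 9 (19.5%). Sca1-low cells differed from untreated cells in 5 of 9 receptors for combined (22.0% of genes), 6 of 9 for EPO (36.3%) and 4 of 9 for IL-3/GM-CSF (18.5%). Sca1-high cells did so in 3 of 9 (15.2%), 0 of 9 (5.51%) and 6 of 9 (16.1%). EPO Sca1-high cells were thus the treated sample in which all 9 receptors stayed within 2-fold of untreated cells, and few genes left that range in it at all.

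The direction of Epor against untreated cells differed between samples. Of the treated arrays, only EPO day 6 and combined day 6 shared a slide with the untreated array. For the others, here and in the counts above, treatment and slide cannot be told apart. Epor was 3.27-fold higher in combined Sca1-low but 4.96-fold lower in combined day 6 cells, 5.12-fold and 4.78-fold higher in EPO Sca1-low and day 6 cells, and 3.97-fold higher in IL-3/GM-CSF Sca1-low but 11.8-fold lower in IL-3/GM-CSF day 6 cells. Csf2ra was above its untreated level on all 9 treated arrays, and it was 6.84-fold higher at combined day 6, 13.8-fold higher at IL-3/GM-CSF day 6 and within 2-fold of untreated cells on all 3 EPO arrays. The IL-3-specific beta chain Csf2rb2 was at least 2-fold lower than in untreated cells on 8 of the 9 treated arrays, with EPO Sca1-high cells the exception, at 0.74 log2 units above. By its dimmer probe, however, it was within 2-fold of untreated cells (4.28) at combined day 6 (3.42), in combined Sca1-high cells (3.32) and at IL-3/GM-CSF day 6 (3.45).

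**Figure D3:**
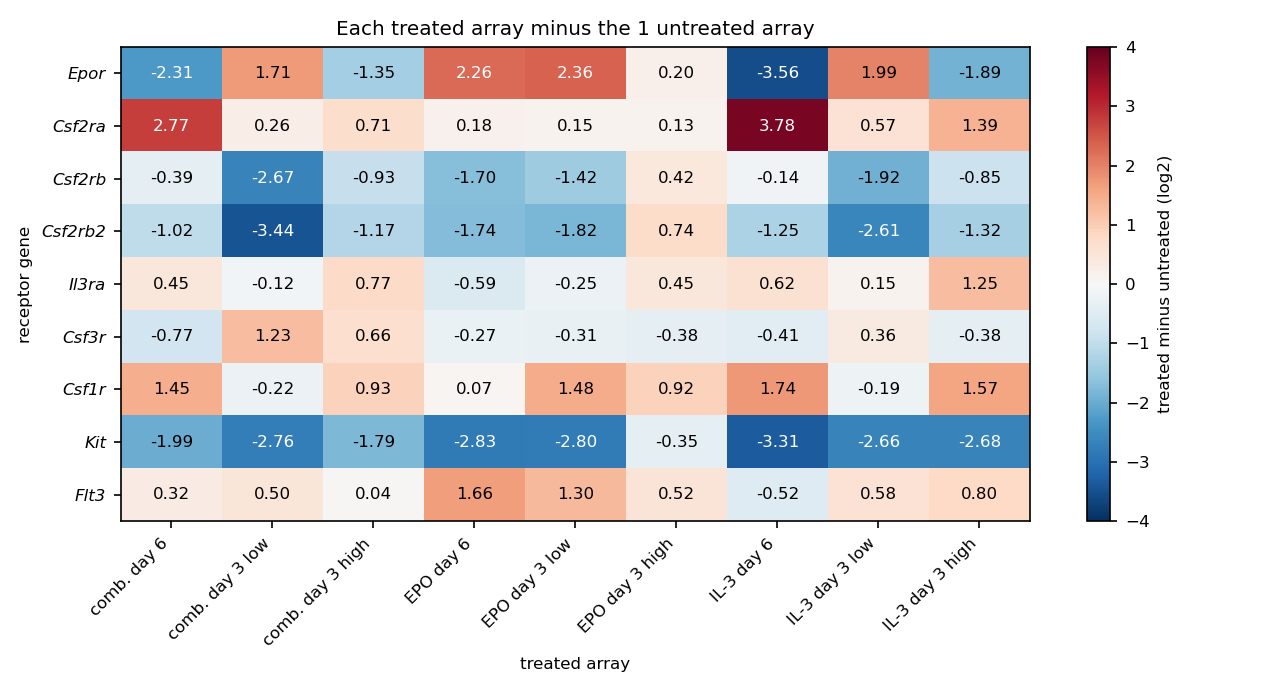
Log2 difference between each of the 9 treated arrays and the 1 untreated array for each receptor; red is higher and blue lower in treated cells. Kit is lower in all 9 columns, Csf2ra reaches 2.77 at combined day 6 and 3.78 at IL-3/GM-CSF day 6, and the column of EPO Sca1-high cells holds no value past 1 in either direction.

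Day 6 was compared with day 3, with treatment in the fit, to follow the receptors over time. No receptor was called in day 6 minus Sca1-low or in day 6 minus Sca1-high cells, against 0% of genes in each, where 2407 and 1473 genes had an unadjusted p under 0.05. Against Sca1-low cells, Epor differed by -3.22 (SE 0.96) and Csf2ra by 1.92 (SE 0.60), both with an adjusted p of 0.255. Against Sca1-high cells, Csf2ra differed by 1.50 (SE 0.60, adjusted p = 0.479) and Il3ra by -0.66 (SE 0.25, adjusted p = 0.474). The counts turned on EPO day 6: without that array, 4 receptors were called in day 6 minus Sca1-low, with Epor at -4.57, Csf2ra at 2.75, Csf2rb at 2.11 and Csf2rb2 at 2.02, in a fit that called 2319 of the 14200 genes. With slide as a block, which left 2 residual degrees of freedom and rests on the slides adding evenly, 3 were called, with Epor at -8.59, Csf2ra at 5.26 and Csf2rb at 4.64, beside 1333 of the 14200 genes. No pair of a day 6 and a day 3 array of the same treatment shared a slide, so no value within a slide can be given.

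The single arrays of the treatments differed in this. In combined cells Epor was 16.2-fold lower at day 6 than in Sca1-low cells at day 3, and in IL-3/GM-CSF cells 46.9-fold lower, while in EPO cells it was within 2-fold. Csf2ra was 5.70-fold higher at day 6 than in Sca1-low cells in combined and 9.28-fold higher in IL-3/GM-CSF cultures, and again within 2-fold in EPO cultures. Csf2rb was 4.88-fold and 3.45-fold higher at day 6 in the same comparisons. In all, 6 of 9 receptors moved by at least 2-fold between Sca1-low and day 6 cells of combined cultures (25.6% of genes), 1 of 9 in EPO (13.4%) and 6 of 9 in IL-3/GM-CSF cultures (25.6%). Against Sca1-high cells it was 2 of 9 in combined (12.4%), 6 of 9 in EPO (27.5%) and 3 of 9 in IL-3/GM-CSF cultures (13.8%).

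The erythroid and neutrophil lists also differed between day 6 arrays. The summed erythroid level was 327 at combined day 6, 2237 at EPO day 6 and 110.3 at IL-3/GM-CSF day 6, against 278.5 in untreated cells. The summed neutrophil level was 2662, 29.7 and 3337 on the same day 6 arrays, against 612 in untreated cells. At IL-3/GM-CSF day 6 only 7 of 15 erythroid markers were well above background, with Hba-x, Alas2 and Slc4a1 among those that were not, and at EPO day 6 only 7 of 17 neutrophil markers were, with S100a8, S100a9, Gfi1 and Cebpe among those that were not. Csf3r did not run with the neutrophil list: it was at 6.01 and 6.37 at combined and IL-3/GM-CSF day 6, where that list was highest, and at 8.01 in combined Sca1-low cells, where the summed level was 137. The part of these markers in the receptor levels was not tested.

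**Figure D4:**
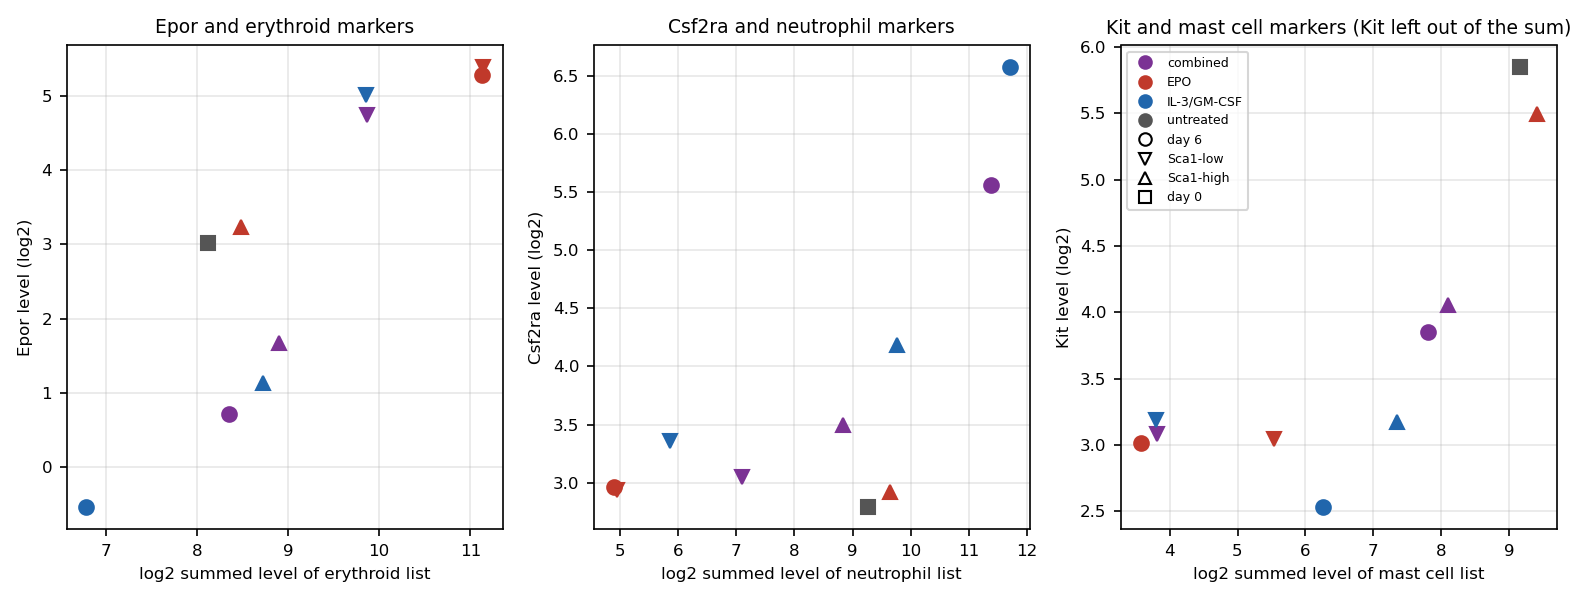
Log2 level of Epor, Csf2ra and Kit on the 10 arrays against the log2 summed level of the erythroid, neutrophil and mast cell lists (Kit left out of the last). Colours are treatments and symbols populations; EPO day 6 and the Sca1-low arrays lie at the upper right for Epor, the IL-3/GM-CSF and combined day 6 arrays for Csf2ra, and untreated and EPO Sca1-high cells for Kit.

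Among all genes tested, those whose levels ran most like a receptor's over the 10 arrays were named by Pearson correlation, as a description with no test; the 10 arrays share 1 cell line and 3 slides. Epor ran most like Dmwd (r = 0.996), Acp5 (0.992) and Klf1 (0.992), the last an erythroid transcription factor, and most opposite to Klhl2 (-0.995). Csf2ra ran most like Lcn2 (0.986), a neutrophil granule protein, complement C3 (0.983) and Wfdc21 (0.983), the last well above background on 4 of the 10 arrays only. Il3ra ran most like Pik3cd (0.975), Il4ra (0.968) and Il10ra (0.958), of which the last pair are cytokine receptors too. Csf2rb ran most like Sgpl1 (0.984) and Csf2rb2 most like Sec14l1 (0.968), while the correlation of both beta chains with each other was 0.942. Csf3r ran most like Mlxipl (0.996), Csf1r like Sh2d2a (0.953), Kit like Chst1 (0.987) and Flt3 like Hdgfl2 (0.956). Between the receptors themselves, Epor ran most opposite to Csf2ra (-0.827).

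Genes of the same pathways were read from lists. Their counts between the fractions stand beside 4.09% of all genes called higher and 6.99% called lower in Sca1-low cells. Of 27 other cytokine and growth factor receptors tested, 1 rose and 11 fell in Sca1-low against Sca1-high cells, with a median difference of -1.13 against 0.17 over all genes. Il21r fell by 4.00 and Acvr1b by 3.02, both called, and Il18r1 was called lower with no Sca1-low array well above background, so that its size is set by the background and is not given. Of 33 kinases, adaptors, STATs and phosphatases, none rose and 8 fell (median -0.48), among them Ptprc, the CD45 phosphatase, at -3.57 and Syk at -2.01. The kinase that Epor and the beta chains use, Jak2, had levels of 2.79, 1.60 and 2.87 in Sca1-low cells, against 2.76, 2.40 and 2.95 in Sca1-high cells, in the order combined, EPO and IL-3/GM-CSF.

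Of 14 STAT5 targets and feedback inhibitors tested, none rose and 3 fell between the fractions (median -0.78), with Dusp6 at -2.07 and Bcl2l1, a survival gene, at -1.72. Cish, a STAT5-induced inhibitor of cytokine receptors, differed from untreated cells by 4.86 (SE 0.82, adjusted p = 0.53) in combined, 4.71 (SE 0.82, adjusted p = 0.461) in EPO and 5.56 (SE 0.82, adjusted p = 0.477) in IL-3/GM-CSF cells. Its level was between 3.69 and 6.07 on the 9 treated arrays and -0.13 in untreated cells. Pim1, a STAT5-induced kinase, lay between -0.10 and 3.38 on the treated arrays and at -1.66 in untreated cells. Socs1 and Socs2 were likewise lowest in untreated cells, at -2.78 and -1.25, against -0.94 or more and 0.13 or more on the treated arrays. Untreated cells had 1 array, and the share of all genes lowest there was not counted.

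Ligand genes were mostly dim, and only 5 of 10 passed the filter. None of Epo, Csf2, Csf3 and Thpo was well above background on any of the 10 arrays. Csf1, the ligand of Csf1r, was well above background on all 3 Sca1-high arrays and on none of the Sca1-low arrays, and it was the 1 ligand called, as lower in Sca1-low cells; the size of its difference is set by the background and is not given. Il3 was well above background on all 10 arrays, between -3.82 and -1.47, and Flt3l between 1.75 and 3.70.

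A list of 19 lineage transcription factors had 4 members that rose and 5 that fell between Sca1-low and Sca1-high cells. Klf1 rose by 4.18 (SE 0.33, adjusted p = 0.00646), and Cebpe, a granulocyte factor, fell by 6.46 (SE 0.22, adjusted p = 0.0041). Gata1, the central erythroid factor, had levels of 6.43, 7.06 and 6.21 in Sca1-low cells, against 3.54, 4.92 and 3.27 in Sca1-high cells. Spi1, which encodes PU.1, had levels of -2.14, -1.60 and -2.09 in Sca1-low cells, against -0.37, -0.95 and 0.00 in Sca1-high cells. The fractions did not overlap for either gene, as was so for 35.9% of all genes.

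Probes of the same receptor were compared over the arrays. The 2 probes of Csf2rb correlated at 0.990 over the 10 arrays, those of Csf2rb2 at 0.993 and those of Flt3 at 0.851. For Csf1r, the brightest probe correlated at 0.206 with the next and at 0.732 with the dimmest, and those other probes at -0.399 with each other. The next probe was nearly flat, between 0.26 and 1.01, and its Sca1-low minus Sca1-high difference was 0.23 (adjusted p = 0.534). The dimmest probe had -4.20, -3.78 and -4.34 in Sca1-low cells, the last 2 not well above background, against -2.09, -3.12 and -1.75 in Sca1-high cells, with a difference of -1.79 (adjusted p = 0.0681). The probes went different ways in EPO Sca1-low cells, where the bright probe gave 3.38, near its highest level, the next probe its highest, 1.01, and the dimmest probe was not well above background. Statements on Csf1r above therefore hold for the brightest probe alone.

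**Figure D5:**
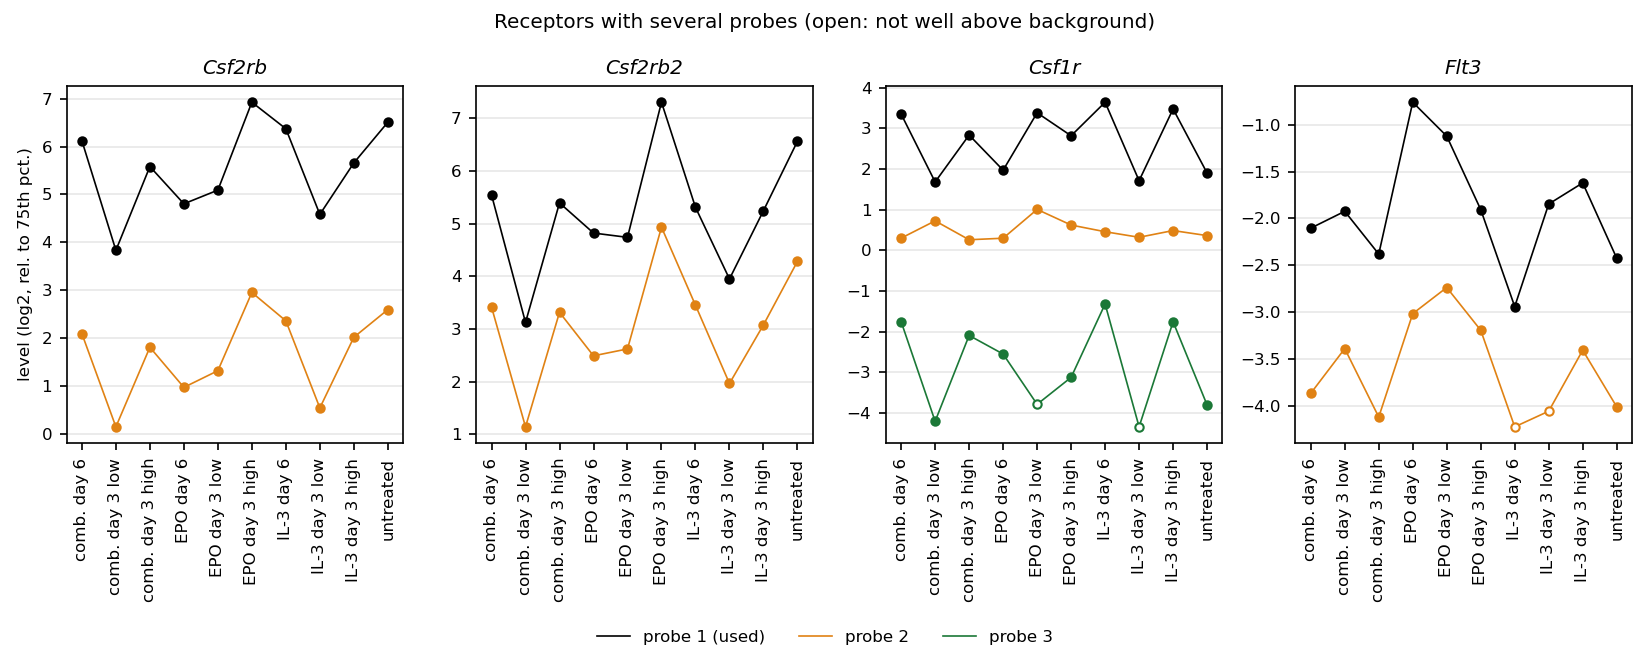
Log2 level of every probe of the 4 receptors with several probes on the 10 arrays; the black line is the probe used and open points are not well above background. The lines run in parallel for Csf2rb and Csf2rb2, while the middle Csf1r probe stays between 0.26 and 1.01.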

How the data were processed

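RNA of 10 EML-C1 samples was measured on 1-colour Agilent arrays, 1 array per condition. Per the labels' protocols, total RNA of sorted cells was labelled with Cy3; per the submitters' processing notes, images were read with Agilent Feature Extraction 11.0.1.1. The deposited values are spot intensities, and the processed intensity column was used; the deposited series matrix held the same intensities in 62969 rows. These values were taken to log2 here and set relative to each array's 75th percentile.

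Members and gene lists were chosen with earlier results of these data known. Named genes are the 9 receptors, up to 4 per list (those furthest apart in a comparison), up to 3 most and 3 least like each receptor over the 10 arrays, and Ly6a; Jak2, Gata1, Spi1, Socs2, the ligands that were not well above background and the absent lineage markers were named after their values were seen. List symbols and RefSeq names were matched by identifier (98.1% of NM and NR probes). Of several probes, the brightest was kept, and limma 3.58.1 (R 4.3.3) was run on the 14200 genes whose probe passed the software's background test on 2 or more arrays.

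As no condition had a replicate, the 6-array fit has 2 and the 10-array fit 4 residual degrees of freedom, which hold treatment-by-population unevenness and not replicate error. The number of arrays limits the precision. On simulated data of 14200 genes with 50 genes changed at each size, the fraction test recovered 0 at a log2 change of 1, 13 at 2, 40 at 4 and 40 at 6, and EPO minus IL-3/GM-CSF 3, 29, 35 and 43. The changed genes were drawn at random and kept their own spread, while the receptors varied more widely than a typical gene. Fewer genes were changed than the 1573 called in the real fraction test. These counts are therefore no estimate of what the tests could find for the receptors. Alternatives were another background correction (normexp with an offset of 50, on the median spot signal, since no mean signal column was used here), 2 other scalings, the series matrix, 2 filters, the mean of probes, slide as a block and leaving out arrays; another probe was tried after seeing the data. No columns of the deposited tables were left unassigned.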

Additional observations from a re-analysis of the deposited data

Results flagged for a closer look

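In 9 cases the same contrast went opposite ways, by at least 2-fold each, in 2 populations or treatments. With 1 array per condition none of these differences was tested. For Csf1r, combined minus EPO was 1.38 at day 6 and -1.70 in Sca1-low cells, EPO minus IL-3/GM-CSF was 1.67 in Sca1-low and -1.67 in day 6 cells, and day 6 minus Sca1-low was 1.93 in IL-3/GM-CSF and -1.41 in EPO cultures; all 3 rest on the high reading of the brightest Csf1r probe in EPO Sca1-low cells, where the next probe was also at its highest, 1.01, and the dimmest probe was not well above background. For Csf2rb, combined minus EPO was 1.32 at day 6 and -1.34 in Sca1-high cells, and EPO minus IL-3/GM-CSF was 1.27 in Sca1-high and -1.57 in day 6 cells. For Epor, combined minus untreated was 1.71 in Sca1-low and -2.31 in day 6 cells, and IL-3/GM-CSF minus untreated was 1.99 in Sca1-low and -3.56 in day 6 cells. Day 6 minus Sca1-high was 2.05 in EPO and -1.67 in IL-3/GM-CSF cultures for Epor, and 1.15 and -1.32 for the dim Flt3. The dimmer Flt3 probe stayed within 2-fold in both cultures. It had -3.02 at day 6 and -3.19 in Sca1-high cells with EPO, and -4.22, not well above background, and -3.41 with IL-3/GM-CSF.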

How the results depend on the processing

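No paired analysis was possible because each group holds replicate 1 alone, so that replicate numbers pair nothing; the pairs of fractions above are by treatment. Under the alternatives, all 9 receptors were followed in Sca1-low minus Sca1-high. In other comparisons only receptors with an unadjusted p under 0.05 in the main fit were followed. Of these values, 271 kept their direction and side of the threshold, 8 newly passed it, 9 lost it and 2 reversed. The 271 include values that could not move, since the series matrix holds the same intensities and the slide block leaves the fraction fit unchanged. Calls of receptors not followed, such as Epor in combined minus EPO below, are outside this count. Il3ra reversed in day 6 minus Sca1-high, at 0.29 with slide as a block. Csf1r reversed in Sca1-low minus Sca1-high, at 0.23 with its next brightest probe. The number of receptors called in Sca1-low minus Sca1-high, 3, became 0 in the additive fit of 10 arrays and ranged from 0 to 4 when a treatment pair was left out; all genes called numbered 1573, and 0 in the additive fit, 2423 with the filter on all 10 arrays, 1034 with no filter, and 2305, 0 and 471 without the EPO, IL-3/GM-CSF and combined pair. Il3ra was called there with normexp and quantile normalization (-1.01, adjusted p = 0.0245), the percentile over detected probes (-1.04, 0.0429) and the filter on all 10 arrays (0.0207); over all alternatives its adjusted p was 0.0207 to 0.134. With slide as a block, 2 receptors were called in combined minus EPO (Epor -4.57, Csf2ra 2.60), 2 in EPO minus untreated (Epor 6.97, Csf2rb -4.28) and 3 in day 6 minus Sca1-low, where 864, 1040 and 1333 genes were called in place of 1, 0 and 0; IL-3/GM-CSF minus untreated, combined minus untreated and day 6 minus Sca1-high then held 293, 63 and 123 in place of 0, 0 and 0. Leaving out 1 array gave 0 to 4 receptors in day 6 minus Sca1-low, with 2319 genes called without EPO day 6, and 0 in the other 10-array comparisons; without EPO Sca1-low, 131 genes were called in EPO minus IL-3/GM-CSF, 101 in combined minus EPO, 7 in IL-3/GM-CSF minus untreated and 133 in day 6 minus Sca1-low, and 40 were called in day 6 minus Sca1-high without EPO day 6. The 1 gene called in EPO minus IL-3/GM-CSF became 2 with normexp and 0 with slide as a block or without any 1 of 8 other arrays, and the 1 in combined minus EPO became 3 with normexp, 18 with the filter on all 10 arrays, and 0 with no filter or with the percentile over detected probes. The cause of these moves was not tested, beyond the smaller number of genes or arrays in filters and left-out fits. With slide as a block, combined minus EPO rests on the combined and EPO day 6 arrays alone. The values for Epor and Csf2rb in EPO minus untreated then exceed the whole range of each gene. Of 243 receptor differences between single arrays, 107 were at least 2-fold (44.0%, against 19.6% of genes on average), and 99 to 114 under 5 alternatives, with none of the 107 reversed. Among the 5, the series matrix holds the same intensities and could not differ. With 1 array per condition, precision is limited by the number of arrays, and Flt3 by its signal near background.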
